A study of Homo sapiens and Canis lupus familiaris with 27 samples.

Results

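DIO3 encodes the type 3 iodothyronine deiodinase, the enzyme that inactivates thyroid hormone, and lies at an end of an imprinted gene cluster on human chromosome 14. It is described here with its antisense RNA DIO3OS, with the activating deiodinases DIO1 and DIO2, with the thyroid hormone receptors THRA and THRB, and with MEG3 and DLK1 from the other end of the cluster. These 8 genes were taken by name from the 3 gene count tables. DIO3 was chosen by its adjusted p in LNCaP. It was the only one of 13156 genes past the threshold after PDA-66 when all 9 LNCaP samples were fitted here. Without a library that stood apart, 162 genes were higher and 99 lower at 12 h. The study, with its own edgeR fit, reported many more LNCaP genes at the same threshold at both times. Because they chose the gene, the LNCaP values of DIO3 are given as a description without a test. The other 7 genes were added for their function or position. All 8 names were listed in the tables of the human PC-3 and LNCaP cells, each with 23708 genes, and 5 of the 8 in the table of the canine CT1258 cells with 16028 genes.

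PC-3 is an androgen-independent human prostate carcinoma line from a bone metastasis, LNCaP is an androgen-sensitive line from a lymph node metastasis, and CT1258 is a canine prostate carcinoma line. Each was exposed to 15 µM PDA-66, a synthetic indolylmaleimide, for 12 h or for 24 h, and compared with cells of the same line exposed to 0.15% DMSO, the solvent. The study describes 3 independent biological replicates per condition and controls exposed for 24 h, so the 12 h groups were set against 24 h controls. Polyadenylated RNA was sequenced, and 26 of the 27 samples had counts in the tables used here, which left 2 DMSO samples in PC-3 and 3 samples in each other group.

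Thyroid hormone is secreted largely as thyroxine, and removal of an iodine from its outer ring by the DIO1 or DIO2 enzyme gives triiodothyronine, the ligand with high affinity for the nuclear receptors encoded by THRA and THRB. The DIO3 enzyme removes iodine from the inner ring and turns either hormone into forms that bind these receptors poorly. All 3 deiodinases are selenoproteins. In the imprinted cluster the protein-coding genes DLK1, RTL1 and DIO3 are expressed mainly from the paternal allele, and the non-coding RNAs MEG3, MEG8 and MEG9, with many small nucleolar RNAs and microRNAs, from the maternal allele. DIO3 is known as a gene of fetal tissues, placenta and several tumours, and is low in most adult tissues.

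On GRCh37, the build of the human alignments, the GENCODE annotation placed DIO3 at chr14:102026476-102029789 on the plus strand, with 1 exon of 1958 bases in its canonical transcript. DIO3OS spanned chr14:102018558-102086692 on the opposite strand and enclosed DIO3, but its canonical exons did not overlap the DIO3 exon. At the other end of the cluster DLK1 lay at chr14:101192042-101204561 and MEG3 at chr14:101245747-101327368, both on the plus strand. DIO2 lay outside the cluster at chr14:80663869-80854100 on the minus strand, DIO1 at chr1:54356912-54376759 on the plus strand, THRA at chr17:38214543-38250120 on the plus strand and THRB at chr3:24158644-24537247 on the minus strand.

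The results below turn on the levels of the 3 deiodinase transcripts, so the 250 bases before the RefSeq start of each gene are shown, 5′ to 3′ on the strand of the gene and in GRCh38.p14 coordinates. They are chr14:101561245-101561494 on the plus strand for DIO3, chr1:53893937-53894186 on the plus strand for DIO1, and chr14:80211505-80211754 on the minus strand for DIO2, where the first of 2 listed starts was used. Capitals mark 3 promoter motifs on either strand, a TATA box, a CAAT box and a GC box, whose letters are given with their counts after the sequences.
DIO3: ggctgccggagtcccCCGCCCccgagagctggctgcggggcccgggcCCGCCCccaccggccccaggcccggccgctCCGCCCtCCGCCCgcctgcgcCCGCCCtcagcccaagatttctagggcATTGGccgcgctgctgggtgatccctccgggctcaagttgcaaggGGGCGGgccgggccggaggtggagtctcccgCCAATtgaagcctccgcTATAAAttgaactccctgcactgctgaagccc
DIO1: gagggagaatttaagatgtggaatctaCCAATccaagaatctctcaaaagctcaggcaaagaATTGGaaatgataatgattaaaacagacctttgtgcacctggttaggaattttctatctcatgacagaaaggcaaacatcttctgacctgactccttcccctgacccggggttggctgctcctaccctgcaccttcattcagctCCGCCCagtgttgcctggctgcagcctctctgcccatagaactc
DIO2: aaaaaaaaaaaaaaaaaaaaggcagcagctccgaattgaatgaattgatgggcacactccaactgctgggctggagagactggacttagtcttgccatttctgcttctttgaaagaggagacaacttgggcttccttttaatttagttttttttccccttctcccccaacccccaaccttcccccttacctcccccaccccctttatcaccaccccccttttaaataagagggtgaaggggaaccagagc

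The DIO3 window held 22 CG dinucleotides at 73.2% G and C, against medians of 11 and 58.0% over 27305 genes, and 27.6% of genes had as many CG dinucleotides. DIO1 had 2 CG at 47.6% G and C and DIO2 had 1 at 46.4%. A TATA box (searched as TATAAA) was found in the DIO3 window only, 32 bases before the start, and 11.1% of all genes had it in a window of this length. DIO3 and DIO1 had 2 CAAT boxes each, searched as CCAAT (33.0% of genes had at least 1). The GC box, searched as GGGCGG, occurred at 6 places for DIO3 and 1 place for DIO1 (42.3% of genes). DIO2 had no match to these 3 motifs. None of the 3 windows held, on either strand, ACGTG (the core of a hypoxia response element, in 18.7% of genes), the core of a xenobiotic response element (searched as GCGTG, in 31.9% of genes) or the binding motif of GLI factors (searched as TGGGTGGTC, in 0.2% of genes).

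Total counts per sample ran from 14650839 to 18091755 in PC-3, from 11923105 to 14741883 in LNCaP and from 7203534 to 20976950 in CT1258, where the controls held 2.64 times the mean total of the PDA-66 samples. Luminal prostate markers were abundant in LNCaP, with FOLH1, the prostate-specific membrane antigen gene, at 919 to 1409 CPM (counts scaled to a common library size with TMM factors), whereas FOLH1 did not exceed 0.110 CPM in PC-3 and lay at 2.84 to 5.70 CPM in CT1258. The CT1258 table listed 1 of 6 epithelial markers by symbol and this gene, EPCAM, was at most 0.262 CPM, so the epithelial label could not be checked there. PDA-66 12 h replicate 2 of LNCaP stood apart from its group, with a mean log2 distance to the other replicates of 2.19 against 0.877 to 1.58 for the other LNCaP samples. The LNCaP fold changes of the members, and the counts of calls near DIO3, in the gene lists and among the markers, are therefore also given without it.

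In LNCaP, DIO3 was well expressed in the DMSO controls and low after PDA-66. It measured 27.0, 28.1 and 49.3 CPM in the 3 DMSO samples, 0.332, 0.823 and 0.359 CPM at 12 h, and 1.49, 1.64 and 1.61 CPM at 24 h. The lowest control lay above every treated sample, and the 24 h samples lay above the 12 h samples. Among all genes 14.6% separated from the controls downwards at 12 h and 21.6% at 24 h, and 9.77% separated upwards from 12 h to 24 h. The sum over a group fell from 1363 counts in DMSO to 20 counts at 12 h (95% exact Poisson interval 12.2 to 30.9) and was 65 counts at 24 h (50.2 to 82.8), with intervals, like the limits for zero counts below, that cover counting error only. Of the control mean, 1.45% was left at 12 h and 4.54% at 24 h. In bulk RNA, fewer cells that express a gene and less of its RNA in each cell cannot be told apart.

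**Figure D1:**
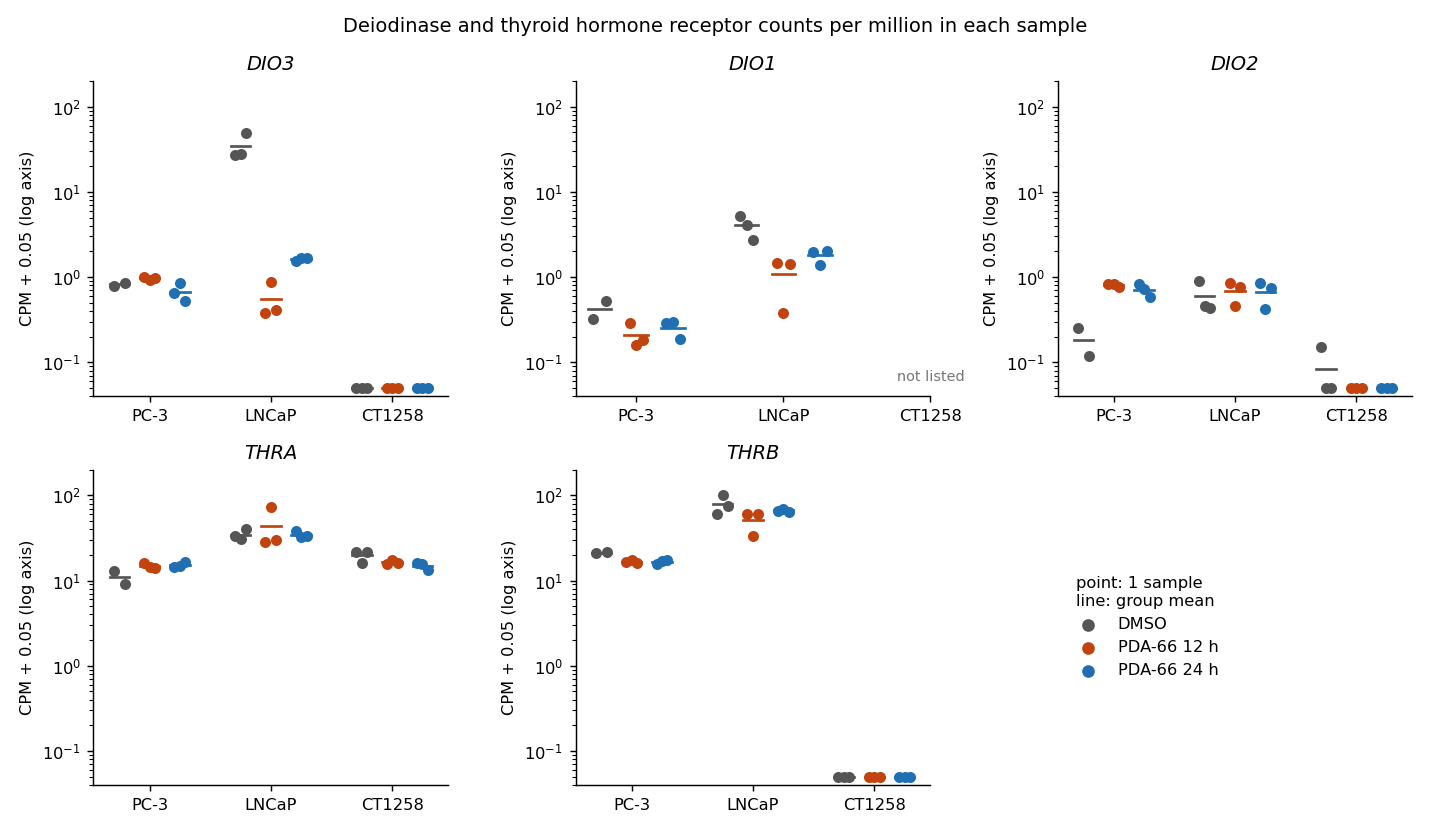
CPM plus 0.05, on a log axis, of DIO3, DIO1, DIO2, THRA and THRB in each sample of PC-3, LNCaP and CT1258, with points for samples and lines for group means. DIO3 in LNCaP lay at 27.0 to 49.3 CPM in DMSO and at 0.332 to 1.64 CPM after PDA-66, while DIO3 in PC-3 stayed between 0.473 and 0.948 CPM in all 8 samples.

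The level of DIO3 at 24 h was 3.13 times that at 12 h, and its 24 h replicates were close together (1.58 ± 0.0788 CPM, SD, n = 3) compared with the controls (34.8 ± 12.6 CPM, n = 3). As log2 fold changes against DMSO these were −6.12 (SE 0.39) at 12 h and −4.45 (SE 0.34) at 24 h. No gene of 13156 had a lower log2 fold change at 12 h, and 2 genes did at 24 h, while the medians over all genes were 0.03 and −0.01. Without PDA-66 12 h replicate 2 the values for DIO3 were −6.62 and −4.45.

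These LNCaP contrasts chose the gene, by an adjusted p under 0.001, the threshold of the study. DIO3 stood just inside this threshold at 12 h with 0.000385, and outside it with only the 2 groups fitted, with the replicate block, and without DMSO replicate 2, PDA-66 12 h replicate 1 or 3, or any 24 h sample. Over all alternatives run, those that kept the call included, its log2 fold change at 12 h lay between −6.62 and −5.78. The 2 genes just outside, both at 0.00113, were CYP1A1, a xenobiotic-metabolising cytochrome, with a log2 fold change of 3.73, and KRT75, a keratin, with −4.88. DIO3 was thus 1 of 5 members tested, in a comparison where 0.0076% of genes were called at 12 h and 0% at 24 h. Without the LNCaP library that stood apart these shares were 1.96% of 13335 genes at 12 h and 0.787% at 24 h. The study reported more LNCaP genes at this threshold than either fit called, at both times.

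Some markers were lower in LNCaP in the same groups as DIO3. The summed level of 7 luminal prostate markers was 4517 to 5530 CPM in DMSO, 3169 to 3834 CPM at 12 h and 4213 to 4321 CPM at 24 h, and 2 of the 7, the protease gene TMPRSS2 (log2 fold change −1.52, adjusted p = 0.0120) and STEAP2 (−1.22, adjusted p = 0.0445), were lower at 12 h at an adjusted p under 0.05. Of 3 endothelial markers, whose sum was 22.9 to 40.2 CPM in DMSO, 4.85 to 14.6 CPM at 12 h and 6.18 to 7.28 CPM at 24 h, almost all came from VWF, the von Willebrand factor gene (−1.87, adjusted p = 0.0228 at 12 h, and −2.14, adjusted p = 0.0318 at 24 h), while PECAM1 and CDH5 did not exceed 0.0772 and 0.0823 CPM. At an adjusted p under 0.05, 608 of 13156 genes were lower at 12 h and 206 at 24 h (edgeR). Without PDA-66 12 h replicate 2, edgeR called TMPRSS2 at 12 h (−1.78) and VWF at 12 h (−2.53) and 24 h (−2.13). In that fit 1 of 7 luminal, 0 of 3 fibroblast and 0 of 5 epithelial markers were called at 12 h, where 1.96% of genes were. An unadjusted p under 0.05 was reached by 4, 2 and 1 of them, as by 42.5% of genes. At 24 h 0 markers of these 3 lists were called, where 0.787% of genes were. The summed level of the epithelial list overlapped between DMSO and 12 h. For the fibroblast list PDA-66 12 h replicate 2 lay above every control and the other 12 h samples lay below every control. The 5 fibroblast markers summed to 22.2 to 29.9 CPM in DMSO, 19.7 to 128 CPM at 12 h and 20.7 to 22.5 CPM at 24 h, where the 128 CPM came from PDA-66 12 h replicate 2 and the next 12 h sample had 20.7 CPM; edgeR called 0 of the 3 tested at 12 h (2 with an unadjusted p under 0.05, median log2 fold change 1.10). The 6 epithelial markers summed to 1372 to 1476 CPM in DMSO, 1350 to 2096 CPM at 12 h and 1499 to 1542 CPM at 24 h, with the highest value again in replicate 2 (median 0.56 at 12 h, 0 of 5 called by edgeR, 1 with an unadjusted p under 0.05). Over all LNCaP genes 30% had an unadjusted p under 0.05 at 12 h. The part of these markers in the DIO3 values was not tested. In PC-3 at 12 h edgeR called 2 of 4 fibroblast and 1 of 1 endothelial markers lower. Of 6 epithelial markers 2 fell and 1 rose, 1 of 2 luminal markers rose, and 0 of 4 mesenchymal or basal markers were called. In CT1258 at 12 h 1 of 1 fibroblast, 1 of 1 mesenchymal or basal and 1 of 3 luminal markers were called lower. Over all genes 27.6% were called in PC-3 and 44.3% in CT1258.

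DIO3 in PC-3 was near the level that LNCaP reached only after PDA-66, and its values before and after PDA-66 differed little. It measured 0.743 and 0.805 CPM in DMSO (11 and 12 counts), 0.948, 0.883 and 0.914 CPM at 12 h (14 to 16 counts), and 0.593, 0.795 and 0.473 CPM at 24 h (7 to 13 counts). Over a PC-3 group, 3 counts would be 0.0597 CPM at 12 h and 0.0638 CPM at 24 h. From such low controls, a fall to the LNCaP shares of 1.45% at 12 h or 4.54% at 24 h would lie under this floor. The 12 h samples lay just above the controls, as for 35.5% of genes, and the 24 h samples overlapped with them. The log2 fold change was 0.24 at 12 h (95% interval −0.50 to 0.97, adjusted p = 0.587, edgeR) and −0.31 at 24 h (−1.10 to 0.48, adjusted p = 0.533). Between 24 h and 12 h the log2 difference was −0.55 (adjusted p = 0.306).

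DIO3 had no count in any of the 9 CT1258 samples. Over a group, 3 counts would be 0.0491 CPM in the controls, 0.130 CPM at 12 h and 0.129 CPM at 24 h, so a level under these was not detectable at this depth. In a fit of both human lines the DIO3 response at 12 h was 6.42 log2 units higher in PC-3 than in LNCaP, and at 24 h 4.18 units higher. These differences rest on the LNCaP samples that chose the gene and are given without a test. They also rest on 11 and 12 counts in the PC-3 controls, too few to measure a fall of the size seen in LNCaP.

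The other genes of the imprinted cluster gave few reads in LNCaP, where DIO3 was the only gene from DLK1 to DIO3 with enough counts to be tested. From DLK1 to DIO3 the human tables listed 92 rows, of which 48 were microRNAs and 37 small nucleolar RNAs, classes that a library of polyadenylated RNA hardly captures. Of 1462 counts on these rows over all 9 LNCaP samples, 1448 were on DIO3, 6 on MEG3, 6 on DIO3OS and 2 on MIR494. DIO3OS had 1, 1 and 4 counts in the DMSO samples and none in the 6 PDA-66 samples, which is at least 2.21-fold lower at 12 h and at least 2.12-fold lower at 24 h, with 3 counts over the group as the floor. This bound leaves out the counting error of the 6 control counts (95% exact Poisson interval 2.20 to 13.1), and without DMSO replicate 3 the controls also lay under the floor, so that no fold could be given. The antisense RNA was therefore counted in the same 3 samples in which DIO3 was high, at a depth that did not allow a test. In RefSeq, whose DIO3OS model is shorter than that of GENCODE, the genes are divergent and 1072 bases apart.

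MEG3, a long non-coding RNA with tumour suppressor activity in several cell types, had no count in LNCaP apart from 6 counts in PDA-66 12 h replicate 2, the library that stood apart. DLK1, a transmembrane ligand of the Notch family that is found on progenitor cells, had no count in LNCaP. In PC-3 the cluster was sampled differently, and most of its 476 counts, over 8 samples, fell on RTL1 (344), a retrotransposon-derived gene needed in the placenta, followed by DIO3 (99) and MEG9 (22). DIO3OS and MEG3 had 0 or 1 count in each PC-3 sample and DLK1 1 count in all. RTL1 measured 1.24 ± 0.232 CPM (n = 2) in PC-3 controls, 3.42 ± 0.805 CPM at 12 h and 2.92 ± 1.41 CPM at 24 h, with log2 fold changes of 1.44 (adjusted p = 0.00645) and 1.20 (adjusted p = 0.0231). RTL1 had no count in LNCaP or CT1258. In CT1258 DLK1 had no count in any sample. MEG3 was represented there by 2 rows, MEG3_1 with no count and MEG3_2 with 1 count in DMSO replicate 3, and DIO1 and DIO3OS were not analysed here in this line.

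**Figure D2:**
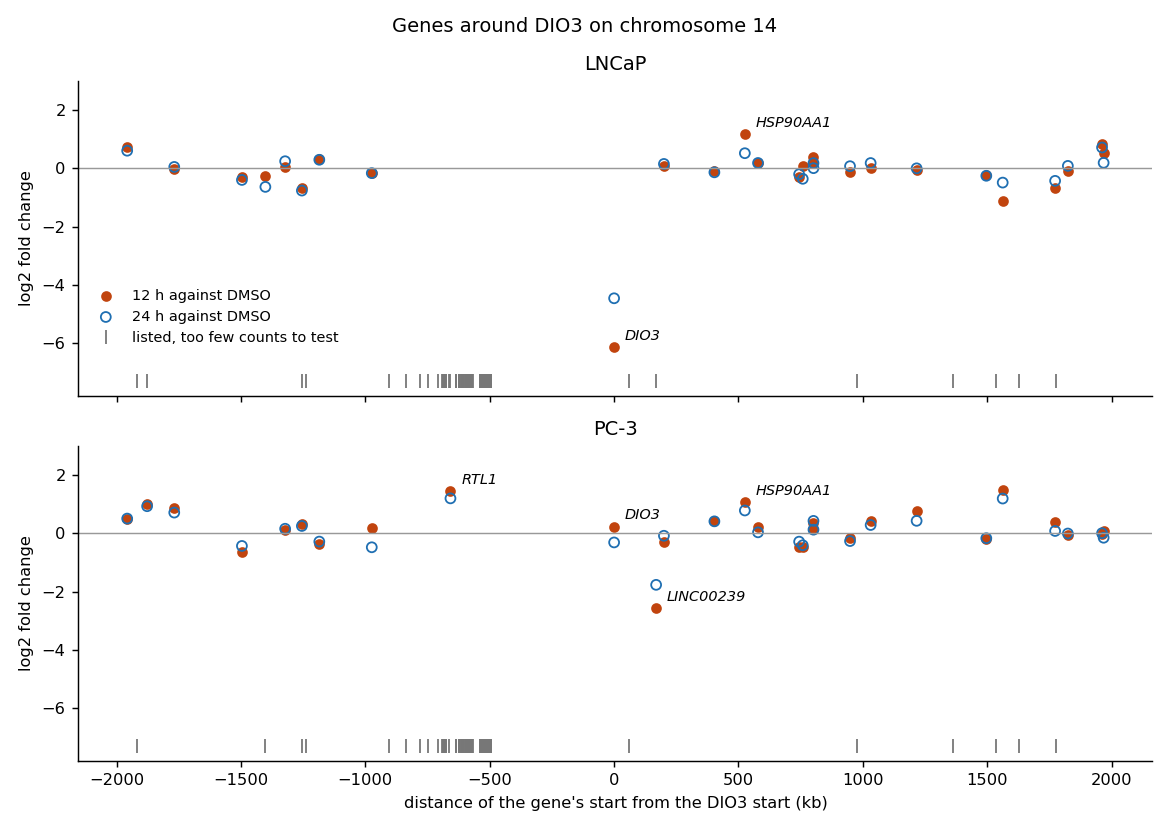
log2 fold change (12 h filled, 24 h open) of each gene tested within 2 Mb of DIO3 against the distance of its start from the DIO3 start in kb, in LNCaP and PC-3, with ticks for genes listed with too few counts to test. In LNCaP DIO3 lay at −6.12 and −4.45 while the 25 other genes lay between −1.12 and 1.17.

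Within 2 Mb of DIO3, 25 other genes were tested in LNCaP, all outside the stretch from DLK1 to DIO3, and edgeR called 0 at either time (6 at 12 h and 4 at 24 h had an unadjusted p under 0.05, as did 30% and 19.8% of all genes). At 12 h 12 of the 25 had a log2 fold change above 0 and 13 below, with a median of −0.01. Their values ran from −1.12 for TNFAIP2 to 1.17 for HSP90AA1, a chaperone of the heat shock response (adjusted p = 0.00818). At 24 h they ran from −0.76 to 0.72 with a median of 0.05. Without PDA-66 12 h replicate 2, 1 of the 25 rose at 12 h (HSP90AA1, 1.01) and 1 fell (SLC25A29, −0.97), and 0 were called at 24 h. Over all genes in that fit 1.96% and 0.787% were called. Of the 25, 11 had an unadjusted p under 0.05 at 12 h and 12 at 24 h (edgeR), as did 42.5% and 41.3% of all genes. In PC-3 27 genes, RTL1 of the cluster included, were tested; 4 rose and 2 fell at 12 h and 3 rose and 1 fell at 24 h, where 27.6% and 19.3% of all tested genes were called. The nearest gene of PC-3 that fell was LINC00239, a non-coding RNA 168.9 kb downstream of the DIO3 start, with 3.33 ± 0.317 CPM (n = 2) in DMSO, 0.540 ± 0.345 CPM at 12 h and 0.969 ± 0.221 CPM at 24 h and a log2 fold change of −2.57 at 12 h (adjusted p = 4.61e-05).

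DIO1, an activating deiodinase best known from liver, kidney and thyroid, was lower after PDA-66 in LNCaP, but did not pass the threshold of the study. It measured 5.22, 4.03 and 2.70 CPM in DMSO, 1.39, 0.329 and 1.36 CPM at 12 h, and 1.90, 1.34 and 1.99 CPM at 24 h. All control samples lay above all treated samples; 14.6% of tested genes separated the groups in this direction at 12 h and 21.6% at 24 h. The log2 fold change was −1.92 (SE 0.44, adjusted p = 0.0282) at 12 h and −1.19 (SE 0.42, adjusted p = 0.149) at 24 h. Without PDA-66 12 h replicate 2, which held the lowest value of DIO1, they were −1.53 (adjusted p = 0.00718) and −1.19 (adjusted p = 0.0121). Over all alternatives the adjusted p at 12 h ran from 0.00065 with DESeq2, which called it, to 0.109. In PC-3 DIO1 was too low for a test, with 4 and 7 counts in DMSO, 2 to 4 counts at 12 h and 2 to 4 counts at 24 h.

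DIO2, the activating deiodinase of brain, pituitary and brown fat, had low counts in every sample and a higher level after PDA-66 in PC-3. There it measured 0.203 and 0.0671 CPM in DMSO (3 counts and 1 count), 0.770, 0.772 and 0.718 CPM at 12 h (11 to 14 counts), and 0.771, 0.672 and 0.541 CPM at 24 h (8 to 13 counts). Each treated sample lay above both controls. The log2 fold change was 2.42 (SE 0.54, adjusted p = 0.00197) at 12 h and 2.24 (SE 0.56, adjusted p = 0.00498) at 24 h, short of the threshold at either time. Over the alternatives the adjusted p ran from 0.0017 to 0.0540 at 12 h and from 0.00389 to 0.0793 at 24 h. With a control left out, DIO2 was 3.36 at 12 h and 3.18 at 24 h without DMSO replicate 2, and 1.87 and 1.70 without DMSO replicate 3. Separation of the groups in this direction was found for 35.5% of genes tested at 12 h and 30.6% at 24 h.

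In LNCaP DIO2 had the same range of 5 to 12 counts in DMSO, at 12 h and at 24 h (0.548 ± 0.259, 0.642 ± 0.203 and 0.625 ± 0.227 CPM, n = 3 each). Its log2 fold change there was 0.22 at 12 h (95% interval −0.81 to 1.26, adjusted p = 0.769) and 0.17 at 24 h (adjusted p = 0.889), and without PDA-66 12 h replicate 2 0.44 (adjusted p = 0.503) and 0.18 (adjusted p = 0.793). The response at 12 h was 2.24 log2 units larger in PC-3 than in LNCaP (adjusted p = 0.0520) and at 24 h 2.10 units larger (adjusted p = 0.112), so a difference between the lines was not established. Without PC-3 DMSO replicate 2 these differences were 3.17 and 3.02, and without PC-3 DMSO replicate 3 they were 1.68 and 1.53. At 12 h 1 of 21 alternatives had an adjusted p under 0.05 (0.0382). In CT1258 DIO2 had 2 counts in a single control sample and none elsewhere.

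**Figure D3:**
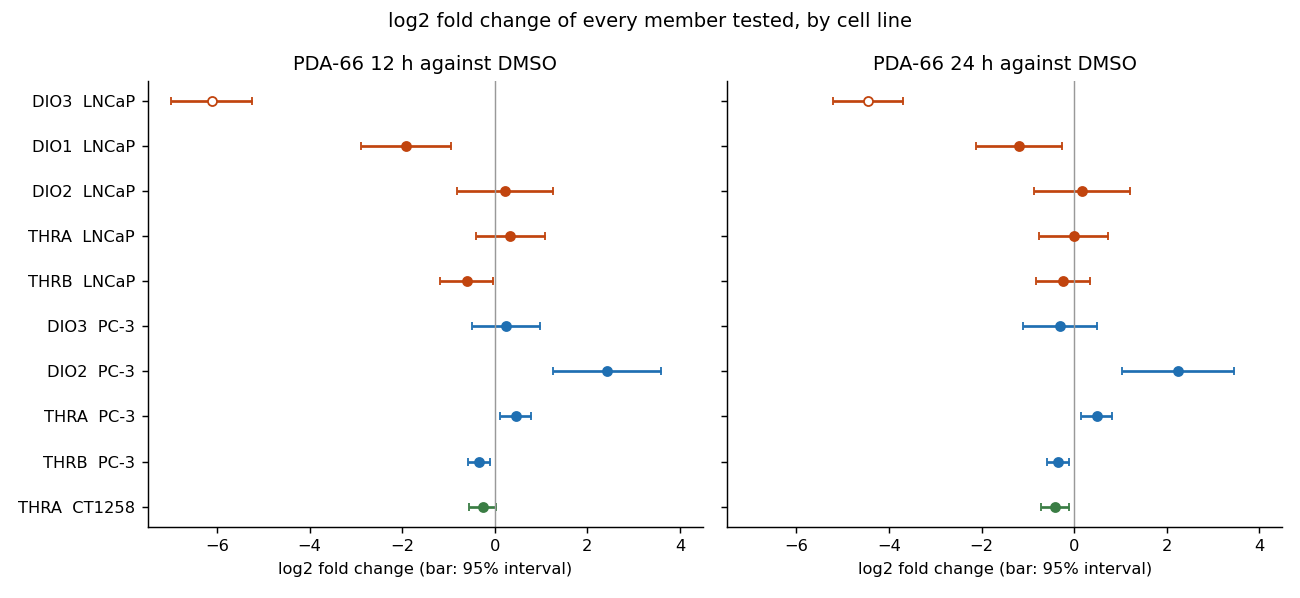
log2 fold change with its 95% interval for each member tested, at 12 h and at 24 h against DMSO, coloured by cell line, with DIO3 in LNCaP drawn open because these contrasts chose it. Away from DIO3 in LNCaP, the values ran from −1.92 for DIO1 in LNCaP to 2.42 for DIO2 in PC-3.

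THRA encodes the receptor form that predominates in heart, bone and brain, and was the only member with counts in all 26 samples of the 3 lines. In PC-3 it measured 12.8 and 8.99 CPM in DMSO, 16.2, 14.3 and 14.2 CPM at 12 h, and 14.5, 14.8 and 16.4 CPM at 24 h. Both controls lay below all treated samples, as for 35.5% of genes at 12 h and 30.6% at 24 h. The log2 fold change was 0.46 (SE 0.16, adjusted p = 0.0230) at 12 h and 0.48 (SE 0.16, adjusted p = 0.0199) at 24 h. Without DMSO replicate 3, the lower control, THRA was at 0.24 (adjusted p = 0.189) and 0.27 (adjusted p = 0.146), and without DMSO replicate 2 at 0.74 (adjusted p = 0.00123) and 0.77 (adjusted p = 0.00116).

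CT1258 gave THRA the opposite sign. The values were 21.5, 16.1 and 21.6 CPM in DMSO, 15.6, 17.5 and 16.2 CPM at 12 h, and 15.8, 15.5 and 13.2 CPM at 24 h. The groups overlapped at 12 h (log2 fold change −0.26, SE 0.14, adjusted p = 0.100) and not at 24 h (−0.41, SE 0.14, adjusted p = 0.0190), where 33.2% of genes separated downwards. Without DMSO replicate 2, the lowest control, the value at 24 h was −0.54 (adjusted p = 0.00013) and passed the threshold.

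THRA in LNCaP measured 33.0, 30.6 and 40.4 CPM in DMSO, 28.2, 73.0 and 30.2 CPM at 12 h, and 37.8, 32.4 and 33.0 CPM at 24 h. The value of 73.0 CPM came from PDA-66 12 h replicate 2. With that sample the log2 fold change at 12 h was 0.34 (adjusted p = 0.524) and without it −0.24 (adjusted p = 0.212); at 24 h it was −0.01 with it (adjusted p = 0.991) and without it (adjusted p = 0.971). The 3′ end of THRA overlaps NR1D1, a circadian repressor on the opposite strand, over 210 of its 5204 exon bases (4.04%), and the strand setting of the counting was not given in the sources used here. NR1D1 had means of 24.9, 22.2 and 25.5 CPM in PC-3 and of 8.05, 2.97 and 7.32 CPM in LNCaP, in DMSO, at 12 h and at 24 h. In CT1258, where the overlap of the genes was not checked, the means were 103, 29.5 and 45.2 CPM. The part of NR1D1 in the THRA values was not tested.

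THRB encodes the receptor form of liver, pituitary and retina, and is often silenced in carcinomas. In PC-3 it measured 20.9 and 21.4 CPM in DMSO, 16.5, 17.3 and 16.1 CPM at 12 h, and 15.7, 16.7 and 17.6 CPM at 24 h. Both controls lay above all treated samples, as for 35.4% of genes at 12 h and 31.3% at 24 h. The log2 fold change was −0.34 at each time (SE 0.11, adjusted p = 0.0182 and 0.0215). An adjusted p under 0.05 was reached in 12 of 16 alternatives at 12 h and in 8 of 17 at 24 h. Over these the log2 fold change at 24 h ran from −0.38 to −0.26. In LNCaP THRB measured 59.9, 100.3 and 75.8 CPM in DMSO, 60.7, 33.2 and 60.5 CPM at 12 h, and 66.4, 69.3 and 64.4 CPM at 24 h. THRB overlapped with the controls at both times, and its 24 h samples lay above its 12 h samples, as for 9.77% of genes. Its log2 fold change there was −0.61 at 12 h (adjusted p = 0.151; −0.37 without replicate 2) and −0.24 at 24 h (adjusted p = 0.683; −0.23 without it). THRB had no count in CT1258.

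At the threshold of 0.001, edgeR called 0 of the 4 members tested in PC-3 at 12 h and at 24 h, in a line where 27.6% and 19.3% of genes were called. At an adjusted p under 0.05, 3 of the 4 passed at each time (DIO2 and THRA higher, THRB lower), against 57% and 49.9% of genes, and the same 3 had an unadjusted p under 0.05, against 61.4% and 56.4% of genes. DESeq2 and limma called none at 0.001 either. In LNCaP, where the choice fixed the place of DIO3, 1 of the 4 other members tested (DIO1) passed 0.05 at 12 h and 0 did at 24 h, against 9.14% and 2.92% of genes. In CT1258 the single member tested, THRA, was not called at either time, where 44.3% and 33.8% of genes were; its unadjusted p was 0.0754 at 12 h and 0.0104 at 24 h, and limma called it at 24 h. It passed an adjusted p of 0.05 at 24 h only, as did 62.1% of genes. Between 12 h and 24 h no member was called by edgeR in the 3 lines, against a call for 1.41% of PC-3 genes, 0% of LNCaP genes and 2.13% of CT1258 genes. For these contrasts the members with an unadjusted p under 0.05 numbered 0 in PC-3, 1 in LNCaP (DIO3, a description only) and 0 in CT1258, against 24.5%, 6.36% and 32.5% of all genes.

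Scaled by the exon length of the GENCODE canonical transcript, DIO3 had the highest mean of the 8 genes in DMSO-exposed LNCaP. These samples entered the contrasts that chose DIO3, so its place among the 8 genes is a description only. The reads were counted on RefSeq genes, and the order holds for the GENCODE lengths only. Its level was 17.8 ± 6.43 CPM per kilobase (n = 3), next to 10.4 ± 2.69 for THRB and 6.66 ± 0.977 for THRA. The ranges of DIO3 and THRB did not overlap in these samples (13.8 to 25.2 and 7.91 to 13.2), and neither did those of THRB and THRA (5.88 to 7.76). DIO1 followed with 2.14 ± 0.677, and DIO3OS (0.0952 ± 0.0831) and DIO2 (0.0911 ± 0.0430) did not differ beyond their spread. At 12 h DIO3 in LNCaP had 0.258 ± 0.141 CPM per kilobase, behind THRA, THRB and DIO1, and at 24 h 0.807 ± 0.0403, behind THRB, THRA and DIO1. Its range overlapped that of DIO1 at both times, and at 12 h also that of MEG3, whose mean of 0.261 came from replicate 2 alone.

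**Figure D4:**
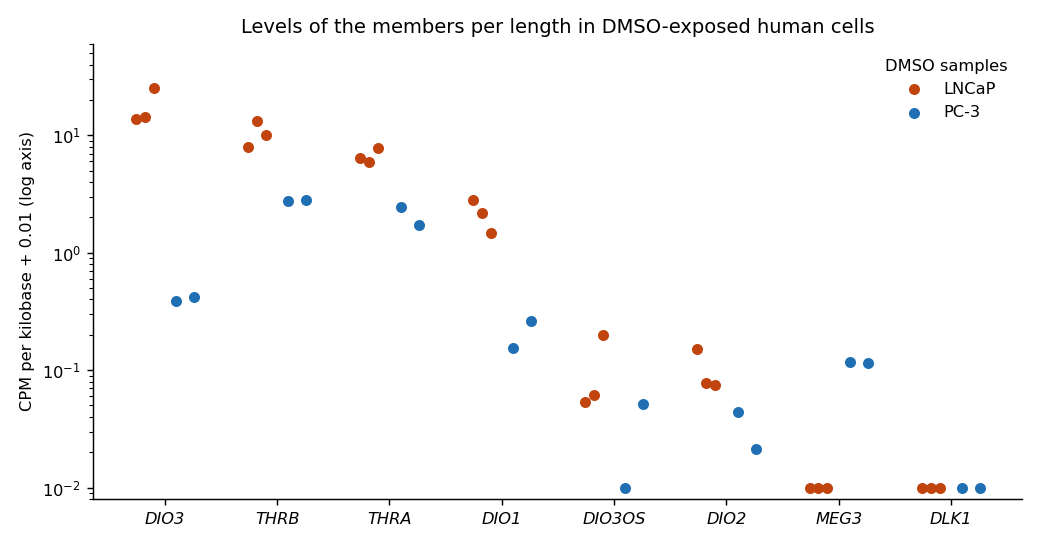
CPM per kilobase of canonical exon plus 0.01, on a log axis, for the 8 members in each DMSO sample of LNCaP and PC-3. DIO3 reached 13.8 to 25.2 in LNCaP and 0.379 to 0.411 in PC-3, the widest gap between the lines among the members. The LNCaP samples shown entered the contrasts that chose DIO3, so this gap is a description only.

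PC-3 controls had THRB first (2.79 ± 0.0491 CPM per kilobase, n = 2), then THRA (2.09 ± 0.513), DIO3 (0.395 ± 0.0224) and DIO1 (0.199 ± 0.0757). Against LNCaP controls, each of the 5 members tested was lower in PC-3. The log2 difference was −5.45 for DIO3, given without a test, −3.38 for DIO1 (SE 0.51, adjusted p = 1.88e-05), −1.96 for DIO2 (SE 0.62, adjusted p = 0.0114), −1.65 for THRA (SE 0.32, adjusted p = 0.000285) and −1.87 for THRB (SE 0.25, adjusted p = 5.39e-06). Of all 15018 genes 40.8% were called between the lines, and of the 4 members other than DIO3, 3 were called (DIO1, THRA and THRB). THRA was not called without PC-3 DMSO replicate 2 (adjusted p = 0.00167), without PC-3 DMSO replicate 3 (0.0106) or without LNCaP DMSO replicate 3 (0.00139), and DIO1 was not called without PC-3 DMSO replicate 2 (0.0011). DIO2 had −1.39 (adjusted p = 0.117) without PC-3 DMSO replicate 3, −1.48 (0.0851) without LNCaP DMSO replicate 1 and −2.88 (0.0147) without PC-3 DMSO replicate 2. The lines were counted in separate tables, and the sources used here do not say whether they were sequenced together.

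Of the responses to PDA-66, 1.53% of genes differed between PC-3 and LNCaP at 12 h and 0.266% at 24 h. None of the 4 other members tested was among them by edgeR, and 1 of the 4, DIO2, had an unadjusted p under 0.05 (0.0074 at 12 h and 0.012 at 24 h), as did 29.9% and 20.2% of all genes. The differences were 0.79 log2 units for DIO1 (95% interval −1.11 to 2.69), 0.18 for THRA (−0.69 to 1.05) and 0.31 for THRB (−0.36 to 0.98) at 12 h, intervals wide enough to hold differences of either sign. With samples left out the THRA difference at 12 h ran from −0.0515 to 0.744. Its adjusted p was under 0.05 in 1 of 21 alternatives, at 0.0174.

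Further lists hold genes around the members, and their counts at 12 h stand against the calls over all genes, 27.6% in PC-3 and 44.3% in CT1258, and against the 30% of LNCaP genes with an unadjusted p under 0.05. With all 9 LNCaP samples fitted, 0.0076% of LNCaP genes were called at 12 h. Without PDA-66 12 h replicate 2 of LNCaP, edgeR called 0 genes in each of the 6 lists that follow at 12 h and at 24 h. Over all genes in that fit, 1.96% and 0.787% were called, and 42.5% and 41.3% had an unadjusted p under 0.05. At 12 h that p was reached there by 4 of 6 transporters, 1 of 15 receptor partners, 9 of 14 hormone-responsive genes, 6 of 18 selenoproteins, 7 of 10 genes of selenocysteine insertion and 5 of 12 genes acting on DIO3, and at 24 h by 4, 7, 9, 4, 6 and 5 of them. Thyroid hormone enters cells through transporters. In PC-3 2 of 6 transporters rose and 1 fell at 12 h (median log2 fold change 0.35, against −0.01 over all genes). SLC7A5, a subunit of the large neutral amino acid transporter, rose by 0.71 (adjusted p = 0.00014). SLC7A8, a related subunit, fell by 0.97. In CT1258 1 of 4 rose (SLC16A10, 1.32) and 2 fell, among them SLC3A2, the partner chain of SLC7A5, with −2.38 and SLC7A5 itself with −0.97. In LNCaP edgeR called 0 of 6 at 12 h, 1 of them with an unadjusted p under 0.05 (4 without replicate 2). The 3 of 6 in PC-3 and 3 of 4 in CT1258 stand beside 27.6% and 44.3% of all genes.

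Of the receptor partners and coregulators, 2 of 14 rose and 1 fell in PC-3 at 12 h (median 0.19). RXRA, the heterodimer partner of the thyroid hormone receptors, rose by 1.37 and the coactivator NCOA1 by 0.71, while RXRB fell by 0.53. In CT1258 3 of 9 fell and none rose (median −0.01), RXRB (−0.83) and the corepressor complex subunits GPS2 (−0.94) and TBL1XR1 (−0.78). LNCaP had 0 calls by edgeR among 15 (2 with an unadjusted p under 0.05, against 30% of genes), with RXRA at 0.87 (adjusted p = 0.131). The 3 of 14 in PC-3 and 3 of 9 in CT1258 lie near or under the 27.6% and 44.3% over all genes.

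Genes known to respond to thyroid hormone were called in both directions at 12 h in PC-3 and CT1258. At 12 h 4 of 17 rose and 3 fell in PC-3 (median 0.12), 2 of 10 rose and 5 fell in CT1258 (median −0.35), and 0 of 14 were called in LNCaP (median 0.34; 5 with an unadjusted p under 0.05 by edgeR). KLF9, a direct receptor target, fell by 2.51 in PC-3, fell by 2.74 in CT1258 and stood at −1.10 in LNCaP (adjusted p = 0.0112). TXNIP rose by 2.53 in PC-3 and by 1.67 in CT1258. COL6A3, which went from 2.05 to 19.5 CPM in PC-3, had a log2 fold change of 3.24. At 24 h 3 rose and 2 fell in PC-3 (median 0.02), where 19.3% of all genes were called. In CT1258 at 24 h 0 rose and 6 of 10 fell (median −0.54), where 17.2% of all genes fell. In LNCaP at 24 h 0 were called and 5 had an unadjusted p under 0.05, as did 19.8% of all genes. The called shares at 12 h, 7 of 17 in PC-3 and 7 of 10 in CT1258, stand beside 27.6% and 44.3% of all genes. KLF9 also responds to glucocorticoids and TXNIP to glucose.

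The deiodinases share selenocysteine with other selenoproteins. Of these, 2 of 18 rose and 2 fell in PC-3 at 12 h (median −0.14), with TXNRD1, thioredoxin reductase, at 1.17, SEPN1 at 1.24 and GPX4, which reduces lipid peroxides, at −0.80. In CT1258 2 of 9 rose and 6 fell (median −0.73), with GPX1 at −1.56, SEPN1 at −0.80 and SELT at 0.81. LNCaP had 0 calls of 18 by edgeR (median 0.27; 3 with an unadjusted p under 0.05). Of the genes that insert selenocysteine, 1 of 10 rose and 1 fell in PC-3 and 1 of 9 rose and 1 fell in CT1258, where SEPHS1 rose by 0.94 and by 1.00, and edgeR called 0 of 10 in LNCaP (6 with an unadjusted p under 0.05, against 30% of genes). Over all genes 27.6% were called in PC-3 and 44.3% in CT1258.

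Among the genes reported to act on DIO3 expression, 3 of 14 rose and 1 fell in PC-3 at 12 h (median 0.11) with little change of DIO3 itself. GLI2, a transcription factor of the hedgehog pathway, rose by 2.38, the TGF-beta receptor TGFBR1 by 1.06 and the hypoxia factor EPAS1 by 0.87. In LNCaP, where DIO3 was lower, edgeR called 0 of 12 (median −0.20; 4 with an unadjusted p under 0.05), and SMAD3, a mediator of TGF-beta, stood at −0.69 (adjusted p = 0.0239). In CT1258 2 of 8 rose and 1 fell, with TGFBR1 at 0.92, GLI3 at 0.70 and SMAD3 at −0.74. The 4 of 14 in PC-3 and 3 of 8 in CT1258 are close to the 27.6% and 44.3% called over all genes.

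The genes most like DIO3 over the 9 LNCaP samples, by the correlation of log2 CPM among 10681 genes with a mean of at least 5 CPM, were SLC44A4 (Pearson r = 0.990), PITPNM2 (0.986), ASIC1 (0.985), FBXO32 (0.984) and CXCR7 (0.983). These correlations run over 3 groups of 3 samples and therefore follow the order of the group means, with DMSO highest, 12 h lowest and 24 h between. SLC44A4, a solute carrier, went from 78.0 ± 3.79 CPM in DMSO to 40.9 ± 1.99 CPM at 12 h and 44.9 ± 1.60 CPM at 24 h. FBXO32, an F-box protein of the ubiquitin system, went from 14.3 ± 0.523 to 4.17 ± 0.886 and 6.05 ± 0.199 CPM. Their log2 fold changes at 12 h, from −0.84 for PITPNM2 to −1.78 for FBXO32, were far smaller in size than the −6.12 of DIO3. The choice of these 5 was not stable, since none was among the 5 highest by Spearman correlation and 1 was among them without PDA-66 12 h replicate 2.

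**Figure D5:**
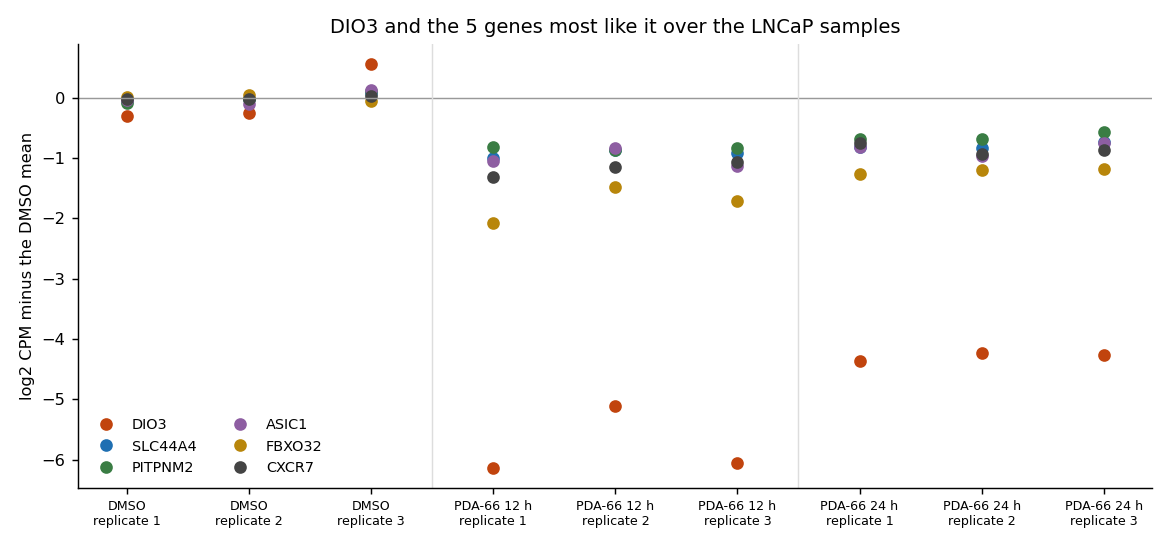
log2 CPM minus the mean of the DMSO samples for DIO3 and the 5 genes most like it in each of the 9 LNCaP samples. The 5 genes share the order of DIO3 between groups, with log2 fold changes of −0.84 to −1.78 at 12 h where DIO3 had −6.12.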

How the data were processed

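Polyadenylated RNA was sequenced as single reads. Per the study's methods and the submitters' processing notes, the authors aligned PC-3 and LNCaP reads to hg19 with STAR 2.3.1s and CT1258 reads to CanFam3.1 with BWA, and deposited raw read counts per gene, which are the values used here. The strand setting of the counting is not given in the sources used here. Each cell line was fitted with edgeR 4.0.16 in R 4.3.3 (TMM scaling, filterByExpr, quasi-likelihood F test, its 3 groups together), with Benjamini-Hochberg adjustment over all genes tested and calls at an adjusted p under 0.001, the threshold of the study. PC-3 and LNCaP were also fitted jointly over 15018 genes. CPM used TMM-scaled library sizes. The fit was tested on simulated counts. Totals per sample ran from 7203534 to 20976950 counts.

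The 8 genes were named in every line, with up to 3 genes per other list and line of smallest adjusted p among genes of at least 1 CPM, the 5 genes most like DIO3 (prior count 2), and the 2 genes next to the threshold. RTL1 and NR1D1 were named for their position. Members and lists were chosen with earlier results of these data known. Alternatives were size factors, filters, DESeq2 1.42.0, limma 3.58.1, a replicate block and each sample left out. PC-3 DMSO replicate 1 was not analysed here. In PC-3 the labels of 2 samples at 12 h gave no clear replicate number. Gene positions came from GENCODE on GRCh37 and promoters from RefSeq on GRCh38.p14, where 7 of the 8 genes had an entry. Some genes of the lists are not reported here by name.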

Additional observations from a re-analysis of the deposited data

Results flagged for a closer look

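The response of DIO3 at 12 h had opposite signs in the human lines, with every PC-3 sample above its controls (log2 fold change 0.24) and every LNCaP sample below its controls (−6.12), a difference of 6.36. At 12 h 35.5% of PC-3 genes separated upwards and 14.6% of LNCaP genes downwards. This difference is a description and no test of it is used, because the LNCaP contrast chose the gene, and the PC-3 value did not pass the test on its own (95% interval −0.50 to 0.97, adjusted p = 0.587, edgeR).

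The log2 fold changes of THRA had opposite signs in PC-3 and CT1258, with each treated sample on the same side of the control mean within a line. With edgeR on all samples none passed 0.001, and the CT1258 groups overlapped at 12 h (adjusted p = 0.100). At 24 h THRA in CT1258 passed with limma voom (adjusted p = 2.73e-05) and without DMSO replicate 2 (0.00013). At 12 h the log2 fold changes were 0.46 and −0.26, a difference of 0.72, and at 24 h 0.48 and −0.41, a difference of 0.89. The human and canine tables hold different genes, and neither difference was tested.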

How the results depend on the processing

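At an adjusted p under 0.05 in place of 0.001, 3 members passed in PC-3 at 12 h and 3 at 24 h, 2 in LNCaP at 12 h and 1 at 24 h, and 1 in CT1258 at 24 h. DIO3 is among the members called in LNCaP and in the comparisons of the lines and is there a description only, since the LNCaP contrasts chose it. In LNCaP at 24 h, 1 member (DIO3), and not 0, was called with library size scaling only, with no filter, with DESeq2, with limma voom and with only the 2 groups fitted. In LNCaP at 12 h DESeq2 called 2 members, and 0 were called with only the 2 groups fitted and 0 with the replicate block, where the main count was 1, DIO3. Limma voom called 1 member in CT1258 at 24 h. The cause of these differences was not tested. Leaving out each sample gave 0 to 1 members in LNCaP at 12 h (0 without DMSO replicate 2, without PDA-66 12 h replicate 1 or 3, or without any of the 24 h samples), 0 to 1 at 24 h (1 without PDA-66 12 h replicate 2), 0 to 1 in CT1258 at 24 h (1 without DMSO replicate 2), 2 to 4 between the human controls (2 without PC-3 DMSO replicate 2) and 0 to 1 for the difference in response at 24 h (DIO3; 0 without either PC-3 control, PC-3 PDA-66 24 h replicate 1 or 2, or any LNCaP PDA-66 24 h replicate).

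Signs near 0 turned under some settings. THRB between 24 h and 12 h in PC-3 was 0.00026 and became −0.002026 with no filter, and ran from −0.0395 to 0.0441 with samples left out. With limma voom, THRA was −0.02813 between 24 h and 12 h in PC-3, −0.25 at 12 h in LNCaP and 0.19 between 24 h and 12 h in LNCaP. With samples left out THRA ran from −0.0280 to 0.0941 between the times in PC-3, from −0.243 to 0.572 at 12 h, −0.0926 to 0.113 at 24 h and −0.585 to 0.236 between the times in LNCaP, and from −0.0515 to 0.744 for the difference in response at 12 h. DIO2 in LNCaP ran from −0.0672 to 0.648 at 24 h and from −0.295 to 0.211 between the times, and THRB from −0.278 to 0.0925 for the difference in response at 24 h. Replicate numbers did not pair the samples (correlations of same-numbered samples −0.42 to 0.19 in LNCaP, −0.19 to 0.15 in CT1258 and −0.10 in PC-3), and the replicate block, which was run within LNCaP, within CT1258 and for PC-3 at 24 h against DMSO, changed the count of LNCaP at 12 h and no other of these. DIO1 and DIO2 in PC-3 and DIO2 in LNCaP had at most 14 counts per sample, and DIO3 in PC-3 had 7 to 16, which limits the precision of their fold changes.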

Other observations

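Genes of other imprinted clusters were measured as well. In LNCaP edgeR called 0 of 25 at 12 h, but 6 were lower and none higher at an adjusted p under 0.05, and 12 had an unadjusted p under 0.05, where 4.62% of all genes were lower at an adjusted p under 0.05 and 30% had an unadjusted p under 0.05. They include DDC, an aromatic amino acid decarboxylase (54.3 to 10.9 CPM, log2 fold change −2.32, adjusted p = 0.00214), GRB10, an adaptor of insulin receptor signalling (358 to 117 CPM, −1.61, adjusted p = 0.00369), and KCNQ1, a potassium channel (6.21 to 1.73 CPM, −1.84, adjusted p = 0.0049). At 24 h 4 of the 25 were lower at an adjusted p under 0.05, against 1.57% of genes. Without PDA-66 12 h replicate 2, edgeR called DDC (−2.24), GRB10 (−1.66) and KCNQ1 (−1.81) at 12 h and DDC (−1.68) and GRB10 (−1.50) at 24 h, where 1.96% and 0.787% of genes were called. In PC-3 4 of 24 rose and 6 fell at 12 h, among them TFPI2, a protease inhibitor (19.8 to 135 CPM, log2 fold change 2.77), CPA4, a carboxypeptidase (1.72), and SLC22A18, a transporter (−1.39). In CT1258 2 of 12 rose (PLAGL1, 0.94, and INPP5F, 0.54) and SLC22A18 fell (−2.05). The share of calls over all genes at 12 h was 27.6% in PC-3 and 44.3% in CT1258.

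PC-3 cells also had counts on TG, the thyroglobulin gene that is the precursor of thyroid hormone in the thyroid. TG measured 146 ± 39.4 CPM in DMSO (n = 2), 42.1 ± 1.37 CPM at 12 h and 108 ± 3.23 CPM at 24 h (n = 3 each). Its log2 fold change was −1.79 at 12 h (adjusted p = 2.23e-07), −0.44 at 24 h (adjusted p = 0.0145), and 1.36 between 24 h and 12 h (adjusted p = 2.72e-05). Of 4 thyroid follicle markers listed in PC-3 only 1, TG, had enough counts to be tested, and TSHR and SLC5A5 did not exceed 0.271 CPM there. TG was at most 0.776 CPM in LNCaP and had no count in CT1258.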
